A study of Mus musculus with 15 samples.

Results

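The genes described here encode 9 proteins of endothelial cell-cell junctions, Cldn5, Ocln, Tjp1, F11r, Jam2, Jam3, Esam, Cdh5 and Pecam1, out of 21173 genes with a named probe. They were taken by symbol, and all 9 had at least 1 probe whose accession led to the symbol. RNA of endothelial cells sorted from mouse liver was hybridised to 15 one-colour arrays, 3 for each of 5 populations. EC-SP and EC-MP came from mice 8 weeks old; the labels give only the letters SP and MP, read here as side population and main population, the first being cells that pump out a DNA-binding dye. The other populations were CD157+CD200+, CD157-CD200+ and CD157-CD200- endothelial cells, whose source was adult liver with no age in weeks given. No genotype, strain, sex or treatment was stated for any group, and every RNA had been amplified before labelling. The study's design calls the 3 samples of a group independent, but the labels do not say whether they were separate animals, so p-values measure the spread between these samples only.

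Endothelial cells hold together through tight junctions and adherens junctions that lie intermingled along the same contact. In tight junctions, claudins and occludin span the membrane and junctional adhesion molecules of the immunoglobulin family join them, while ZO-1 ties them to actin from inside. Adherens junctions rest on VE-cadherin, and PECAM-1 binds its like on the neighbouring cell outside both. In liver, the sinusoids are lined by thin, fenestrated endothelium that lets plasma through, whereas portal and central vessels have a more continuous lining.

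On the 15 arrays, 57.3% to 69.4% of spots rose well above background. Arrays of a group correlated at r between 0.959 and 0.973 over features. A level is given below as the log2 signal minus the log2 75th percentile of its array, so that 0 is the 75th percentile, and levels of different genes are not comparable because each probe binds with its own strength. In the subsets, the mRNA of the sorted proteins followed the labels, but Cd200 also differed between the CD200-positive subsets. Bst1, the gene of CD157, stood 5.73 ± 0.25 log2 units higher in CD157+CD200+ than in CD157-CD200- (SE of the fitted difference, 3 arrays a group, limma adjusted p = 5.5e-07), where it was well above background on 2 of 3 arrays. The Cd200 signal of CD157-CD200+ exceeded that of CD157-CD200- at least 154-fold (adjusted p = 1.3e-08). CD157+CD200+ exceeded CD157-CD200+ in Cd200 by 1.06 ± 0.16 (adjusted p = 0.013) and in Bst1 by 4.98 ± 0.25 (adjusted p = 1.1e-04). Bst1 was well above background on 3 of 3 CD157-CD200+ arrays. Bst1 was also higher in EC-SP than in EC-MP, by 4.34 ± 0.24 (adjusted p = 2.7e-05), and Cd200 by 3.39 ± 0.26 (adjusted p = 9.0e-05). The labels of those populations name neither, and genes of dye efflux were not looked at here. All 15 of 15 general endothelial markers were well above background on every array. The 6 arrays of EC-SP and EC-MP and the 9 arrays of the subsets were read on different scanners, so that levels across the sorts are set side by side and not tested.

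Ocln and Jam3 were higher in EC-SP than in EC-MP cells and higher in CD157+CD200+ cells than in both other subsets. Jam2, Pecam1 and F11r were higher in both CD200-positive subsets than in CD157-CD200- cells, and Cldn5 was lower in them. Cdh5, Tjp1 and Esam were called in no comparison of 2 populations. For EC-SP against EC-MP, 2 of the 9 genes passed an adjusted p of 0.05, both higher. Of all 23958 features tested, 16.6% were called, 9.11% higher and 7.44% lower. For CD157+CD200+ against CD157-CD200-, 6 passed, 5 of them higher and 1 lower, with 15.2% of 23691 features called, 8.09% higher and 7.1% lower. For CD157+CD200+ against CD157-CD200+, 2 passed, both higher, where 1.05% of features were called, 0.802% higher and 0.245% lower. For CD157-CD200+ against CD157-CD200-, 4 passed, 3 higher and 1 lower, beside 11.8% of features, 6.31% higher and 5.54% lower. A test for any difference among the 3 subsets called 6 of the 9 genes and 13.9% of features. The median log2 difference of the 9 genes was 0.56, 0.85, 0.18 and 0.55 in these 4 comparisons in turn, and that of all features between -0.01 and 0.02. A gene was tested if some group had it well above background on each of its 3 arrays. Ocln met this in EC-SP and CD157+CD200+ alone, the groups where it was higher. Its part in these counts and medians therefore depends on that filter.

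**Figure D1:**
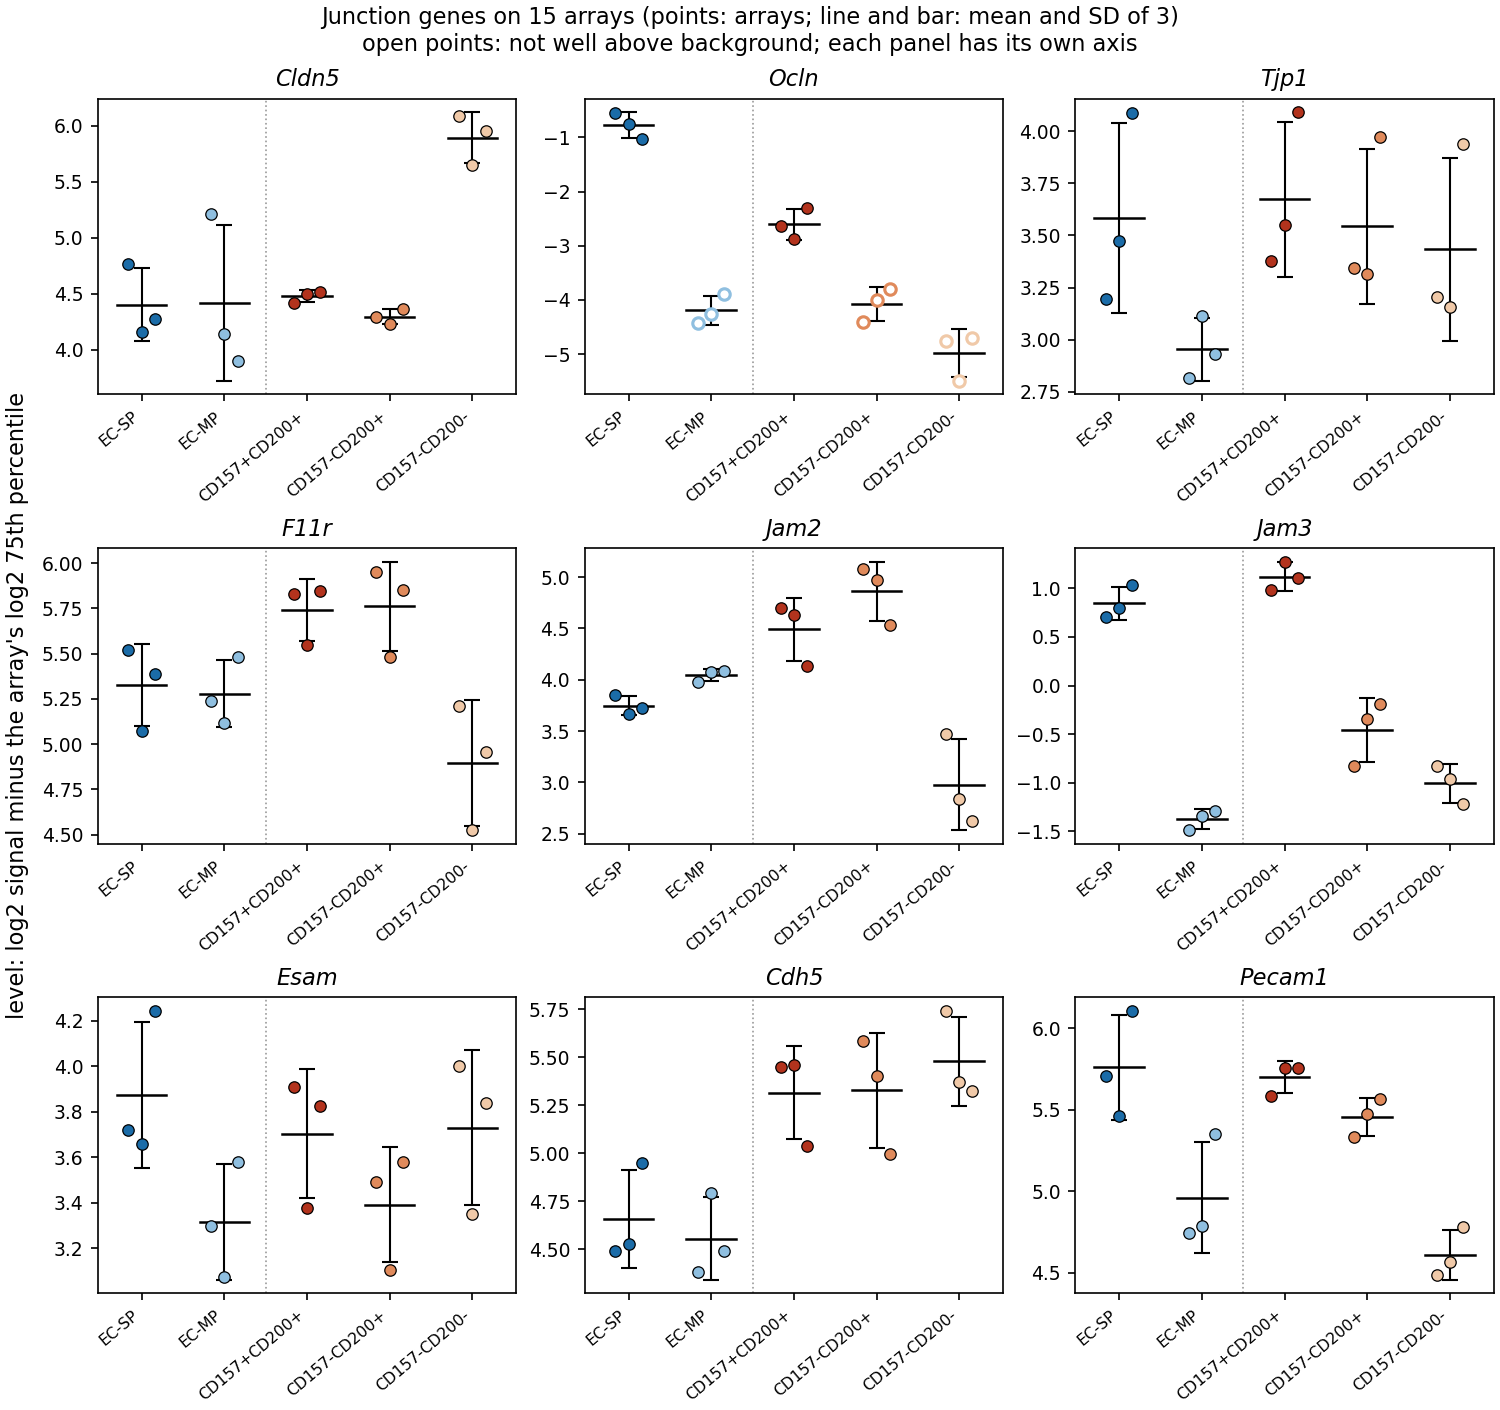
Level of each junction gene on the 15 arrays (vertical axis, log2 signal minus the log2 75th percentile of the array, a separate scale in every panel), with 1 point per array and the mean and SD of 3 arrays per population; open points were not well above background, and the dotted line parts the 2 sorts. Ocln lay between -1.02 and -0.55 in EC-SP and between -4.43 and -3.89 in EC-MP, whereas Cldn5 lay between 5.65 and 6.09 in CD157-CD200- and at or below 4.52 in the other subsets.

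Promoter sequence is shown for the 3 genes that moved and had an entry in RefSeq's GRCm38.p6 table, which matched 4 of the 9 genes. Each run is the 250 bases before the annotated start, 5′ to 3′ on the strand of the gene, with capitals on matches to the letters GGGCGG, a core of Sp and KLF sites, or CAGGTG, an E-box core read by Snail and Zeb factors, on either strand. Cldn5 (chr16:18776597-18776846, plus strand) and Ocln (chr13:100552719-100552968, minus strand) stand for the genes that moved in opposite directions between CD157+CD200+ and CD157-CD200- cells, and F11r (chr1:171437311-171437560, plus strand) for a gene that differed with CD200.
Cldn5: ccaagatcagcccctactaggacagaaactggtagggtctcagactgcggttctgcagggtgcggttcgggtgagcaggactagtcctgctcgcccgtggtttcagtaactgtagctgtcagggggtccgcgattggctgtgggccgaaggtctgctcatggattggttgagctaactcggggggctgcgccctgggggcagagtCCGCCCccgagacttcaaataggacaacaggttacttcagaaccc
Ocln: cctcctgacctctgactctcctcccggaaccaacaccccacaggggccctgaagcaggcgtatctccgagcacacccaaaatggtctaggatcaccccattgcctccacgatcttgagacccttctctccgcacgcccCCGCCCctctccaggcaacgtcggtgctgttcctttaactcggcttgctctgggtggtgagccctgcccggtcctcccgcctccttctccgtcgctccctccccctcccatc
F11r: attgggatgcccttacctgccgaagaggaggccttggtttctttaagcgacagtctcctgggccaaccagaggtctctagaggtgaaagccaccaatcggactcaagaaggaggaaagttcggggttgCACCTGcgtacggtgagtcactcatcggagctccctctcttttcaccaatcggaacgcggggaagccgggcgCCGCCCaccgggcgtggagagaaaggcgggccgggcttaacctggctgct
GGGCGG occurred once in each of these windows, and in 32.7% of 32851 windows of this length. CAGGTG was present in F11r alone of the 3 and in 17.2% of all windows. The window of a second annotated Ocln start also held it, at 2 places. None of the windows held AGGAAG, an ETS core found in 29.5% of all windows, ACAAAG for Sox factors (16.5%) or GTAAACA for forkhead factors (3.17%). The letters of a match describe the sequence and say nothing of binding in these cells.

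Cldn5 encodes claudin-5, the main claudin of endothelial tight junction strands. Its level (probe A_51_P189814) was 4.41, 4.50 and 4.52 in CD157+CD200+ replicates 1 to 3, 4.29, 4.23 and 4.36 in CD157-CD200+, and 6.09, 5.65 and 5.95 in CD157-CD200-. Every CD157-CD200- array lay above all arrays of the other subsets. CD157+CD200+ cells were lower than CD157-CD200- cells with -1.42 ± 0.17 on the log2 scale (adjusted p = 3.3e-04), and CD157-CD200+ cells differed from them by -1.60 ± 0.17 (adjusted p = 1.9e-04), which is 3.03-fold. The CD200-positive subsets were 0.18 apart, with a 95% confidence interval from -0.20 to 0.56 (adjusted p = 0.97), although their arrays did not overlap. Within the 3 slides, each of which held 1 array of every subset, the difference between CD157+CD200+ and CD157-CD200- was -1.67, -1.15 and -1.44.

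The side population sort gave another picture for Cldn5. EC-SP arrays stood at 4.77, 4.16 and 4.28 and EC-MP arrays at 5.21, 4.14 and 3.90, with full overlap. Replicate 1 of EC-MP was the highest of the 6 arrays. The difference was -0.02 ± 0.36 (adjusted p = 0.98, 95% interval -0.83 to 0.79). Leaving out 1 array gave -0.28 to 0.38, the highest without EC-MP replicate 1 (adjusted p = 0.49).

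Markers of other liver cells moved beside Cldn5 in the subsets. Of 13 hepatocyte markers tested, 10 were lower in CD157+CD200+ than in CD157-CD200- cells and 12 were lower in CD157-CD200+. Over all features, 7.1% and 5.54% were called lower in these comparisons. The summed signal of the 15 markers listed, in units of the array's 75th percentile, ran from 31.2 to 48.5 in CD157-CD200-, from 14.7 to 18.5 in CD157+CD200+ and from 13.7 to 16.9 in CD157-CD200+. For 11 Kupffer cell markers it ran from 39.9 to 54.4, from 28.0 to 31.3 and from 27.3 to 37.4. Without Csf1r, the marker of highest signal over the arrays, it ran from 13.1 to 33.2, from 5.81 to 7.64 and from 6.39 to 9.18. Of 10 Kupffer cell markers tested, 6 were lower in CD157+CD200+ than in CD157-CD200-, where 7.1% of features were. Timd4 was not well above background in any group, while every hepatocyte marker was above it on some CD157-CD200- array. Their part in the level of Cldn5 was not tested.

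Occludin, encoded by Ocln, spans the membrane of tight junction strands beside the claudins. The brighter of its probes (A_51_P486155) read -0.55, -0.75 and -1.02 in EC-SP and -4.43, -4.25 and -3.89 in EC-MP. In the subsets it read -2.63, -2.88 and -2.31 in CD157+CD200+, -4.41, -4.01 and -3.81 in CD157-CD200+, and -4.76, -5.49 and -4.71 in CD157-CD200-. It was well above background on every EC-SP and CD157+CD200+ array and on none of the other 9. Folds against those groups are therefore given as lower bounds. They were taken against the dimmest signal well above background on each array or the probe's own signal, whichever was higher. That dimmest signal may come from any probe and is not the detection limit of this one, so every fold given here as at least a value is approximate. Ocln in EC-SP exceeded EC-MP at least 8.26-fold (fitted log2 difference 3.42 ± 0.24, adjusted p = 6.2e-05). CD157+CD200+ cells exceeded CD157-CD200- cells at least 2.45-fold (2.38 ± 0.27, adjusted p = 2.3e-04). They exceeded CD157-CD200+ cells at least 2.52-fold (1.47 ± 0.27, adjusted p = 0.037).

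The other Ocln probe, A_55_P2055694, was likewise well above background on every EC-SP and CD157+CD200+ array and on none of the others. In a fit of every probe, EC-SP exceeded EC-MP at least 5.92-fold (adjusted p = 5.8e-05). CD157+CD200+ exceeded CD157-CD200- at least 3.30-fold (adjusted p = 1.6e-05) and CD157-CD200+ at least 3.63-fold (adjusted p = 0.0043). For the brighter probe the calls in the subsets were less stable. With normexp background correction, which raises dim signals by an offset, the difference from CD157-CD200- was 0.33 (adjusted p = 0.093) and that from CD157-CD200+ 0.35 (adjusted p = 0.30). The call against CD157-CD200+ was also lost under quantile normalization (adjusted p = 0.053), without the filter on dim probes (adjusted p = 0.11), and on leaving out any 1 of the 6 arrays compared or CD157-CD200- replicate 1 (adjusted p between 0.053 and 0.17). CD157-CD200+ and CD157-CD200- differed by 0.91 on signals not well above background (adjusted p = 0.062). Over the other settings the adjusted p ran from 0.010 to 0.96, with 0.022 under the replicate block, which compares arrays of 1 slide. The other probe differed by 1.25 between these CD157-negative subsets and was called (adjusted p = 0.018), also on signals not well above background. No fold is given for that pair.

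Jam3 encodes JAM-C, an adhesion molecule of endothelial contacts that also takes part in leukocyte passage. Its probe (A_51_P358354) was well above background on all 15 arrays. Levels were 0.71, 0.80 and 1.03 in EC-SP and -1.49, -1.34 and -1.29 in EC-MP. They were 0.98, 1.28 and 1.10 in CD157+CD200+, -0.83, -0.35 and -0.19 in CD157-CD200+, and -0.83, -0.96 and -1.22 in CD157-CD200-. The EC-SP and CD157+CD200+ arrays all lay above 0 and the 9 others below it. Jam3 was 4.65-fold higher in EC-SP than in EC-MP (log2 difference 2.22 ± 0.21, adjusted p = 2.7e-04) and 4.36-fold higher in CD157+CD200+ than in CD157-CD200- (2.12 ± 0.21, adjusted p = 9.8e-05). The difference from CD157-CD200+ was 1.58 ± 0.21 (adjusted p = 0.0083). Within slides it was 2.19, 2.14 and 2.33 between EC-SP and EC-MP and 1.81, 2.24 and 2.32 between CD157+CD200+ and CD157-CD200-. CD157-CD200+ and CD157-CD200- overlapped and differed by 0.55 ± 0.21 (adjusted p = 0.16).

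Bile duct cells carry occludin too. Most markers of bile duct cells tested were called higher in EC-SP than in EC-MP, as Ocln and Jam3 were, but none between subsets. Of 13 cholangiocyte markers tested, 10 were higher in EC-SP than in EC-MP and none was lower, beside 9.11% of features higher and 7.44% lower. Krt19, a keratin of bile duct cells, differed by 2.62 (adjusted p = 5.2e-04). The summed signal of the 15 markers listed ran from 27.2 to 34.8 in EC-SP and from 10.5 to 11.5 in EC-MP. In CD157+CD200+ it was 20.4 to 21.7, in CD157-CD200+ 12.4 to 17.1 and in CD157-CD200- 11.2 to 16.7, although limma called none of the 13 markers between any pair of subsets. At an unadjusted p under 0.05 it was 8 between CD157+CD200+ and CD157-CD200+, where 8.58% of all features had such a p. It was 2 between CD157+CD200+ and CD157-CD200- (26.6% of features) and 1 between the CD157-negative subsets (22%), against 10 between EC-SP and EC-MP (30.2%). Cftr and Onecut1 were not well above background on any array. In sorted bulk samples, fewer cells of a type and less RNA per cell cannot be told apart, and the part of these markers in the levels of Ocln and Jam3 was not tested.

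**Figure D2:**
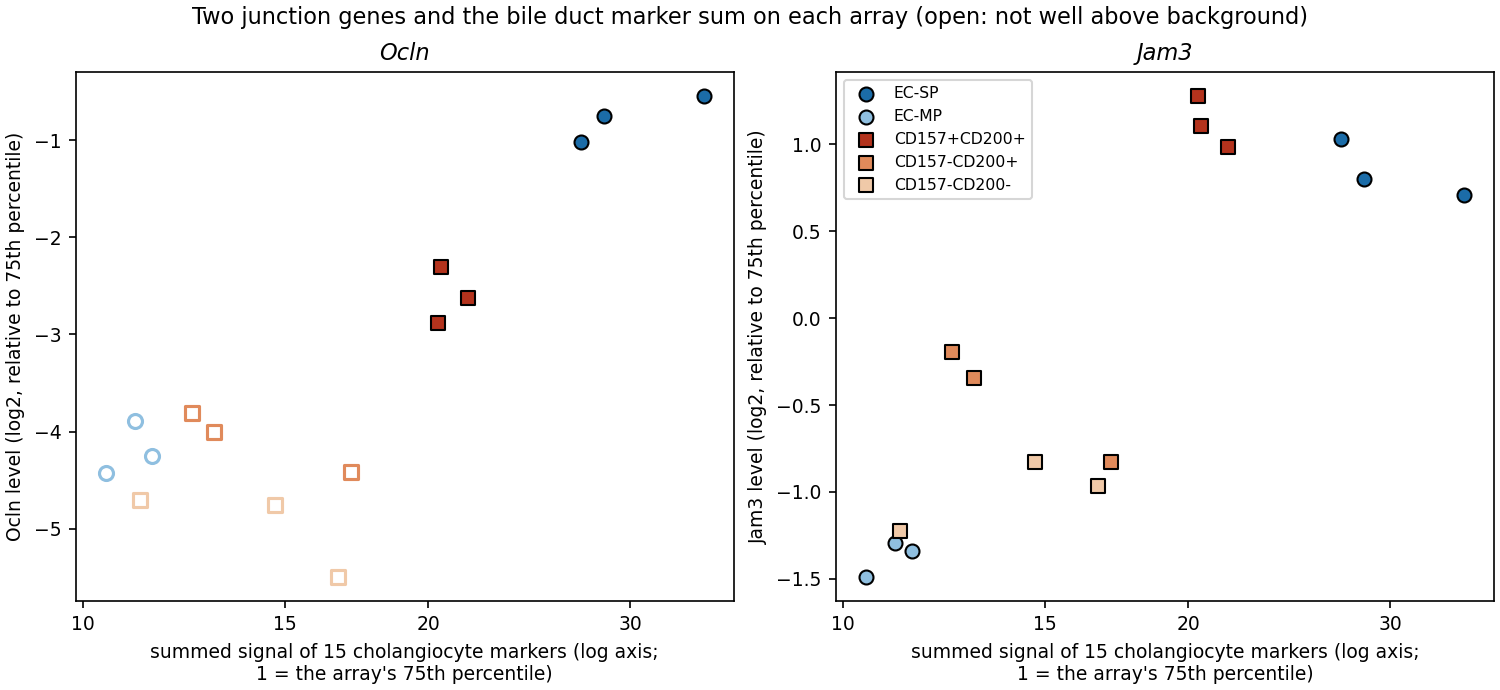
Ocln (left) and Jam3 (right) level on each array (vertical axes, log2 relative to the 75th percentile) against the summed signal of 15 cholangiocyte markers (horizontal log axis, 1 is the 75th percentile), with circles for EC-SP and EC-MP, squares for the subsets and open symbols for signals not well above background. EC-SP had the highest marker sum, 27.2 to 34.8, and the highest Ocln, while Jam3 was between 0.71 and 1.28 in EC-SP and CD157+CD200+ alike.

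Jam2 encodes JAM-B, the binding partner of JAM-C. Its brighter probe (A_55_P2123502) read 4.70, 4.63 and 4.14 in CD157+CD200+, 5.08, 4.98 and 4.53 in CD157-CD200+, and 3.47, 2.84 and 2.62 in CD157-CD200-. The CD157-CD200- arrays lay below all 6 others. CD157+CD200+ cells were higher than CD157-CD200- cells by 1.51 ± 0.27 (adjusted p = 0.0040) and CD157-CD200+ cells by 1.88 ± 0.27 (adjusted p = 0.0013), which is 3.69-fold. Between the CD200-positive subsets the difference was -0.37 ± 0.27 (adjusted p = 0.90; 95% interval -0.98 to 0.24). In EC-SP the level was 3.85, 3.67 and 3.73 and in EC-MP 3.98, 4.08 and 4.08. All EC-SP arrays were lower, by -0.30 ± 0.20, which missed the threshold (adjusted p = 0.38). The other probe, A_55_P2381926, gave 1.33 ± 0.27 (adjusted p = 0.0092) and 1.78 ± 0.27 (adjusted p = 0.0021) against CD157-CD200- cells and -0.42 ± 0.22 (adjusted p = 0.24) for EC-SP against EC-MP.

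F11r encodes JAM-A, which binds ZO-1 at tight junctions. Levels (probe A_51_P458866) were 5.83, 5.55 and 5.85 in CD157+CD200+, 5.95, 5.48 and 5.85 in CD157-CD200+, and 5.21, 4.52 and 4.95 in CD157-CD200-. The lowest array of each CD200-positive subset stood above the highest CD157-CD200- array. The difference from CD157-CD200- was 0.85 ± 0.22 for CD157+CD200+ (adjusted p = 0.031) and 0.87 ± 0.22 for CD157-CD200+ (adjusted p = 0.034). Both calls were near the threshold and were lost without the filter on dim probes (adjusted p = 0.073 and 0.081). The first was lost without CD157+CD200+ replicate 1 or 3 or CD157-CD200- replicate 2 or 3 (adjusted p up to 0.10), and the second without CD157+CD200+ replicate 1, CD157-CD200+ replicate 1 or 3 or CD157-CD200- replicate 2 or 3 (up to 0.13). EC-SP, at 5.52, 5.08 and 5.39, overlapped EC-MP, at 5.24, 5.11 and 5.48, with a difference of 0.05 ± 0.23 (adjusted p = 0.93; 95% interval -0.47 to 0.57).

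Esam encodes an adhesion molecule of endothelial cells and platelets related to the JAM proteins. It read 3.72, 3.66 and 4.24 in EC-SP and 3.30, 3.07 and 3.58 in EC-MP (probe A_55_P2125811). The groups did not overlap, and the difference of 0.56 ± 0.25 missed the threshold (adjusted p = 0.18). The subsets read 3.91, 3.38 and 3.82 in CD157+CD200+, 3.49, 3.11 and 3.58 in CD157-CD200+, and 4.0, 3.35 and 3.84 in CD157-CD200-. Replicate 2 was the lowest array in each of them. CD157+CD200+ and CD157-CD200- were -0.03 apart, with a 95% interval from -0.56 to 0.51 (adjusted p = 0.97).

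Tjp1 encodes ZO-1, the adaptor between tight junction proteins and actin. Its levels (probe A_55_P2034998) were 3.19, 3.47 and 4.09 in EC-SP and 2.81, 3.12 and 2.93 in EC-MP. The groups did not overlap, but EC-SP spread widely and the difference of 0.63 ± 0.27 was not called (adjusted p = 0.16). In the subsets the levels were 3.38, 3.55 and 4.09, then 3.34, 3.31 and 3.97, then 3.21, 3.16 and 3.94, in the order CD157+CD200+, CD157-CD200+ and CD157-CD200-. Replicate 3 was the highest in all of them. CD157+CD200+ and CD157-CD200- differed by 0.24 ± 0.29 (adjusted p = 0.71; 95% interval -0.42 to 0.90).

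Cdh5 encodes VE-cadherin, the cadherin of endothelial adherens junctions. Levels (probe A_52_P248604) were 4.49, 4.53 and 4.95 in EC-SP and 4.38, 4.79 and 4.49 in EC-MP, which overlapped. They were 5.45, 5.46 and 5.04 in CD157+CD200+, 5.58, 5.40 and 5.0 in CD157-CD200+, and 5.74, 5.37 and 5.32 in CD157-CD200-, which overlapped as well. None of the differences passed the test. EC-SP and EC-MP differed by 0.10 ± 0.24 (adjusted p = 0.84; 95% interval -0.43 to 0.63), which turned to -0.14 under quantile normalization and -0.06 with the deposited series table. CD157+CD200+ and CD157-CD200- differed by -0.16 ± 0.22 (adjusted p = 0.75; 95% interval -0.66 to 0.33).

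Pecam1 encodes PECAM-1, also known as CD31, which is used as a general endothelial marker. It read 5.58, 5.76 and 5.76 in CD157+CD200+, 5.34, 5.47 and 5.57 in CD157-CD200+, and 4.49, 4.57 and 4.78 in CD157-CD200- (probe A_55_P2087087). The 3 subsets did not overlap and kept this order within every slide. CD157+CD200+ cells were higher than CD157-CD200- cells by 1.09 ± 0.17 (2.13-fold, adjusted p = 0.0015) and CD157-CD200+ cells by 0.85 ± 0.17 (1.80-fold, adjusted p = 0.0079). The step of 0.24 ± 0.17 between the CD200-positive subsets was not called (adjusted p = 0.87; 95% interval -0.13 to 0.61). EC-SP stood at 5.71, 5.46 and 6.11 and EC-MP at 4.74, 4.79 and 5.35. All EC-SP arrays were higher, by 0.80 ± 0.27 (adjusted p = 0.077). Over the other settings the adjusted p of this difference ran from 0.017 to 0.28, with 0.025 under the replicate block. On leaving out 1 array it ran from 0.049 to 0.21. The within-slide values of Pecam1 were 0.96, 0.68 and 0.75 there.

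**Figure D3:**
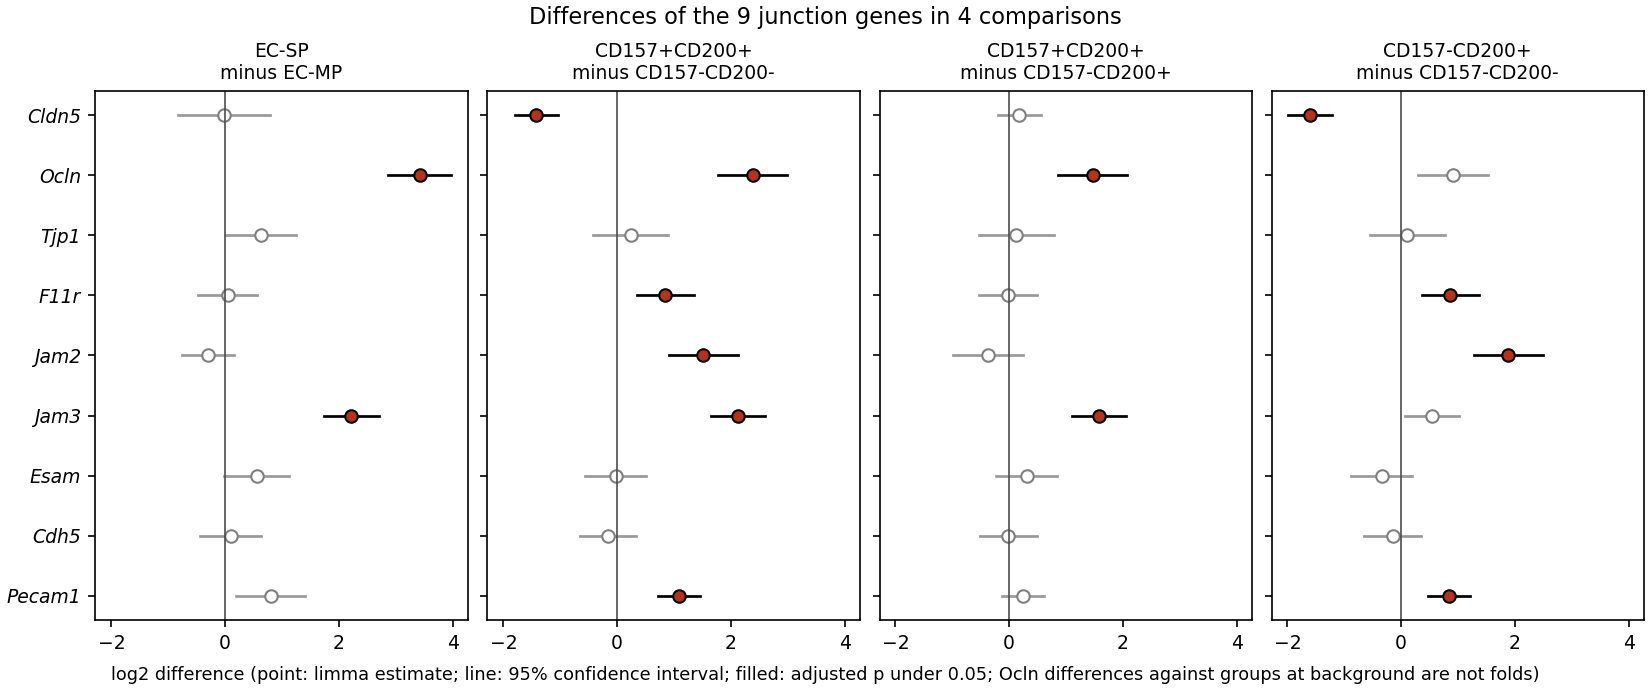
Log2 difference of the 9 junction genes in 4 comparisons (horizontal axes; the first population of each title minus the second), with the 95% confidence interval as a line and filled points at an adjusted p under 0.05. Cldn5 had the only called differences below 0, -1.42 and -1.60 against CD157-CD200- cells, and Ocln and Jam3 were called in 3 of the 4 panels.

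Across the subsets, the genes fell into orders that can be read against their spread. For Jam3, CD157+CD200+ stood above both other subsets, between which no difference was called. For Ocln it stood above both as well, and neither of these was well above background, with a difference between them called by 1 of its 2 probes. For Jam2, F11r and Pecam1, both CD200-positive subsets stood above CD157-CD200-, with no called difference between them, and for Cldn5 the order was the opposite. The groups did not overlap for 6 genes between EC-SP and EC-MP, where this held for 34.9% of all features. The same was true of 6 genes between CD157+CD200+ and CD157-CD200- (29.3% of features), 4 between the CD200-positive subsets (14.6%) and 5 between the CD157-negative subsets (25.4%). The subset comparisons share arrays and are not independent of each other.

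The side population and the CD157+CD200+ population were each set against the opposite population of their sort, and the difference between the 2 log2 differences was tested in 1 fit of 15 arrays. Only Jam2 passed, at -1.81 ± 0.34 (adjusted p = 0.0060), where 5.05% of 25050 features were called, 2.08% with a positive and 2.97% with a negative value. It was -0.30 in the first sort and 1.51 in the second. For Cldn5 the difference of differences was 1.40 ± 0.41 (adjusted p = 0.066). Leaving out each of the 15 arrays in turn gave 1.14 to 1.80, with an adjusted p from 0.0035 to 0.15. The value of 1.80, with the lowest p, came without EC-MP replicate 1, the highest array of its sort. With the replicate block 4 genes passed, Jam2, Cldn5 (adjusted p = 0.0069), F11r at -0.80 (adjusted p = 0.019) and Esam at 0.58 (adjusted p = 0.037), whereas the count over all features rose from 1265 to 3189. Jam3 was 0.09 ± 0.28 with a 95% interval from -0.52 to 0.70 (adjusted p = 0.97). The value for Ocln, 1.04 ± 0.37 (adjusted p = 0.15), cannot be read as a size, because the Ocln signals of EC-MP and CD157-CD200- were too dim on all 6 arrays to pass the background test.

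**Figure D4:**
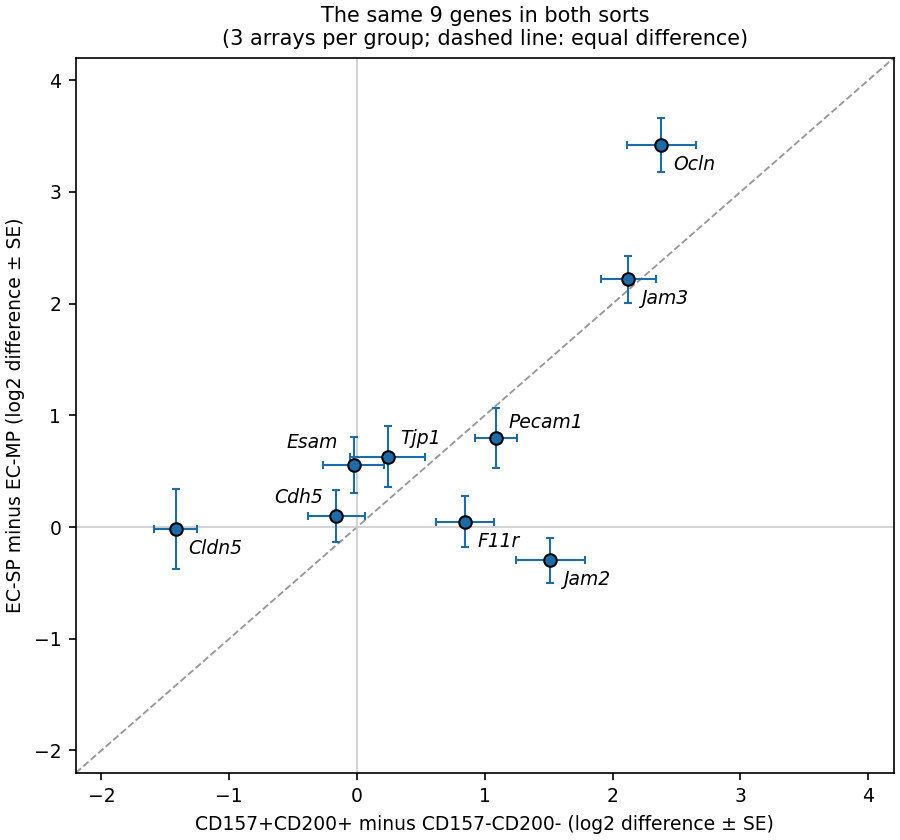
Log2 difference ± SE of the 9 genes between EC-SP and EC-MP (vertical axis) against that between CD157+CD200+ and CD157-CD200- (horizontal axis), 3 arrays per population; the dashed line marks equal differences. Jam3 lay near the line at 2.22 and 2.12, Jam2 below it at -0.30 and 1.51, and Cldn5 above it at -0.02 and -1.42; the position of Ocln rests on signals not well above background in EC-MP and CD157-CD200-.

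Other genes of the junction were taken from lists drawn up by function. No list was tested against all features, of which 16.6% were called between EC-SP and EC-MP, 15.2% between CD157+CD200+ and CD157-CD200- and 11.8% between the CD157-negative subsets. Among the other claudins, 7 of 15 tested were higher in EC-SP than in EC-MP and none lower, with a list median of 0.90 against -0.01 for all features. The filter on dim probes kept 15 of 24 claudins with a probe, and it admits a gene through 1 population alone. Cldn8 was well above background on 3 of 3 EC-SP and 0 of 3 EC-MP arrays. Counts and medians of this and the other lists therefore depend in part on that filter. Cldn3, a claudin of bile duct epithelium, differed by 2.61 ± 0.37 (adjusted p = 0.0018) with 1 of 3 EC-MP arrays well above background, and Cldn8 in EC-SP exceeded EC-MP at least 1.35-fold (adjusted p = 0.0067). Cldn2, a pore-forming claudin, differed by 1.42 ± 0.29 (adjusted p = 0.011). Of 12 claudins tested in the subsets, 2 were higher in CD157+CD200+ than in CD157-CD200- cells, Cldn11 by 3.86 ± 0.63 (adjusted p = 0.0023) and Cldn12 by 1.42 ± 0.17 (adjusted p = 3.7e-04). Cldn11 varied between slides, with 5.93, 3.45 and 2.20. The list of epithelial junction genes, which shares Cldn3, Cldn4 and Cldn7 with the claudins and those and Epcam with the cholangiocyte markers, had 6 of 13 higher in EC-SP, among them the epithelial adhesion molecule Epcam (1.84 ± 0.24, adjusted p = 0.0011) and the desmosome protein gene Perp (1.89 ± 0.29, adjusted p = 0.0025). Limma called none of 12 between any pair of subsets; at an unadjusted p under 0.05 there were 4 between CD157+CD200+ and either other subset and 0 between the CD157-negative subsets, where the shares of all features were those given for the cholangiocyte markers.

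Among adaptors, polarity proteins and tricellular proteins, 5 of 24 were higher and 1 lower in EC-SP, 25.0% in all beside 16.6% of features. Lsr, the lipolysis-stimulated receptor that marks tricellular contacts, was 13.0-fold higher (3.70 ± 0.26, adjusted p = 6.0e-05). Pard3, the polarity protein PAR-3, differed by 2.01 ± 0.30 (adjusted p = 0.0022), Magi1, a scaffold, by 1.43 ± 0.27 (adjusted p = 0.0075), and the relative Pard3b by -1.37 ± 0.31 (adjusted p = 0.016). In CD157+CD200+ against CD157-CD200- cells, 3 of 23 were higher and 2 lower, 21.7% beside 15.2%. Pard3 differed by 4.07 ± 0.44 (adjusted p = 1.6e-04) with 1 of 3 CD157-CD200- arrays well above background, Lsr by 2.49 ± 0.33 (adjusted p = 5.8e-04) and Cgnl1, paracingulin, by 1.85 ± 0.29 (adjusted p = 0.0018). Micall2, which helps to recycle occludin to the membrane, differed by -3.15 ± 0.28 (adjusted p = 5.0e-05) and Pard3b by -0.91 ± 0.24 (adjusted p = 0.030). Between CD157-CD200+ and CD157-CD200- cells 2 were higher and 3 lower, beside 6.31% and 5.54% of features. The higher ones were Pard3 and Cgnl1, and the lower ones Micall2, Pard3b and Magi3, another scaffold (-0.87 ± 0.24, adjusted p = 0.049).

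The cadherin-catenin and nectin list had 4 of 19 genes higher and none lower in EC-SP, 21.1% beside 16.6% of features. Pvr, a nectin-like receptor, differed by 2.11 ± 0.26 (adjusted p = 8.8e-04), Ablim1, an actin-binding LIM protein, by 2.33 ± 0.36 (adjusted p = 0.0027), and Afdn, which links nectins to actin, by 0.95 ± 0.21 (adjusted p = 0.017). In CD157+CD200+ against CD157-CD200- cells, 4 of 19 were again higher and none lower, beside 8.09% and 7.1% of features. Ablim1 differed by 5.66 ± 0.48 (adjusted p = 3.4e-05), although it was well above background on 1 of 3 CD157-CD200- arrays. The actin cross-linker gene Actn1 differed by 2.03 ± 0.27 (adjusted p = 6.6e-04), and Plekha7 was higher at least 5.65-fold (adjusted p = 0.0013). Ablim1, Plekha7 and Actn1 were also the 3 of 19 higher in CD157-CD200+ than in CD157-CD200- cells, where 6.31% of features were higher.

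Other endothelial contact proteins moved both ways, with 6 of 16 higher and 3 lower in EC-SP, where 9.11% of features were higher and 7.44% lower. Pcdh1, protocadherin-1, differed by 1.70 ± 0.23 (adjusted p = 0.0013) and Pcdh12, VE-cadherin-2, by -2.0 ± 0.27 (adjusted p = 0.0015). Cxadr, the coxsackie and adenovirus receptor, differed by 2.15 ± 0.32 (adjusted p = 0.0024) with 2 of 3 EC-MP arrays well above background, and Igsf5, also called JAM-4, was higher at least 2.29-fold (adjusted p = 0.0024). Cdh13, T-cadherin, differed by -1.48 ± 0.24 (adjusted p = 0.0035), and Ptprb, the phosphatase VE-PTP that binds VE-cadherin, by -1.0 ± 0.22 (adjusted p = 0.015). In CD157+CD200+ against CD157-CD200- cells, 3 of 15 were higher and 2 lower, beside 8.09% and 7.1% of features. Pcdh1 differed by 1.60 ± 0.24 (adjusted p = 0.0012), Icam1 by 0.90 ± 0.26 (adjusted p = 0.046), Pcdh12 by -1.98 ± 0.23 (adjusted p = 2.7e-04) and Robo4 by -0.81 ± 0.21 (adjusted p = 0.027). Cdh13 was there higher, by 1.38 ± 0.28 (adjusted p = 0.0090). Between CD157-CD200+ and CD157-CD200- cells 2 of 15 were higher and 2 lower, beside 6.31% and 5.54% of features. Cdh13 differed by 1.98 ± 0.28 (adjusted p = 0.0013), Pcdh1 by 1.31 ± 0.24 (adjusted p = 0.0051), Pcdh12 by -1.82 ± 0.23 (adjusted p = 6.0e-04) and Robo4 by -1.01 ± 0.21 (adjusted p = 0.011).

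Signals that tighten or loosen endothelial contacts had 3 of 26 genes higher and 4 lower in EC-SP, 26.9% in all beside 16.6% of features. Rapgef4, the cAMP-activated exchange factor EPAC2, differed by 5.44 ± 0.54 (adjusted p = 3.0e-04), although it was well above background on 1 of 3 EC-MP arrays. S1pr1, the sphingosine-1-phosphate receptor that stabilises junctions, differed by 1.34 ± 0.20 (adjusted p = 0.0027). Angpt2, an antagonist of TIE2 signalling that loosens junctions, differed by -1.80 ± 0.27 (adjusted p = 0.0024), and its receptor gene Tek by -0.83 ± 0.24 (adjusted p = 0.043). The RAC activator gene Tiam1 was lower at least 1.57-fold (adjusted p = 0.0086). In CD157+CD200+ against CD157-CD200- cells, 4 of 26 were higher and 3 lower, again 26.9%, beside 15.2%. Rapgef4 was higher at least 12.6-fold (adjusted p = 2.8e-04), Heg1, which anchors the KRIT1 complex, differed by 2.00 ± 0.20 (adjusted p = 9.8e-05) and Radil, a RAP1 effector, by 3.69 ± 0.47 (adjusted p = 4.7e-04), with 1 of 3 CD157-CD200- arrays well above background. Angpt2 differed by -2.88 ± 0.24 (adjusted p = 3.0e-05), Rapgef3, EPAC1, by -0.78 ± 0.21 (adjusted p = 0.036), and Tiam1 was lower at least 3.57-fold (adjusted p = 0.0041). Between CD157-CD200+ and CD157-CD200- cells 3 of 26 were higher and 2 lower, beside 6.31% and 5.54% of features. Heg1 differed by 2.16 ± 0.20 (adjusted p = 8.0e-05), Radil by 3.09 ± 0.47 (adjusted p = 0.0018) and Angpt2 by -3.37 ± 0.24 (adjusted p = 1.5e-05). Rapgef4 was higher at least 2.69-fold (adjusted p = 0.024) and Tiam1 lower at least 3.62-fold (adjusted p = 0.0030).

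Transcription factors listed as regulators of Cdh5 and Cldn5 had 7 of 16 higher and none lower in EC-SP, beside 9.11% and 7.44% of features. Their median difference was 0.76, against -0.01 for all features. Sox17 differed by 2.19 ± 0.22 (adjusted p = 3.0e-04), Gata2 by 2.03 ± 0.21 (adjusted p = 4.3e-04) and Snai1, the repressor Snail, by 1.90 ± 0.22 (adjusted p = 7.0e-04). In CD157+CD200+ against CD157-CD200- cells, 1 of 16 was higher and 3 lower, beside 8.09% and 7.1% of features. The higher gene was Lmo2 (0.92 ± 0.18, adjusted p = 0.0065). Lower were Ets1 (-1.03 ± 0.17, adjusted p = 0.0028) and the E-box repressors Zeb2 (-0.94 ± 0.21, adjusted p = 0.013) and Zeb1 (-0.69 ± 0.15, adjusted p = 0.013). Between CD157-CD200+ and CD157-CD200- cells 1 of 16 was higher and 2 lower, beside 6.31% and 5.54% of features. Lmo2 differed by 0.75 ± 0.18 (adjusted p = 0.023), Ets1 by -1.69 ± 0.17 (adjusted p = 1.5e-04) and Zeb1 by -0.87 ± 0.15 (adjusted p = 0.0046). Limma called none of the 111 genes of these 6 functional lists between CD157+CD200+ and CD157-CD200+ cells, where 1.05% of all features were called. An unadjusted p under 0.05 was found for 16 of them and for 8.58% of all features.

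**Figure D5:**
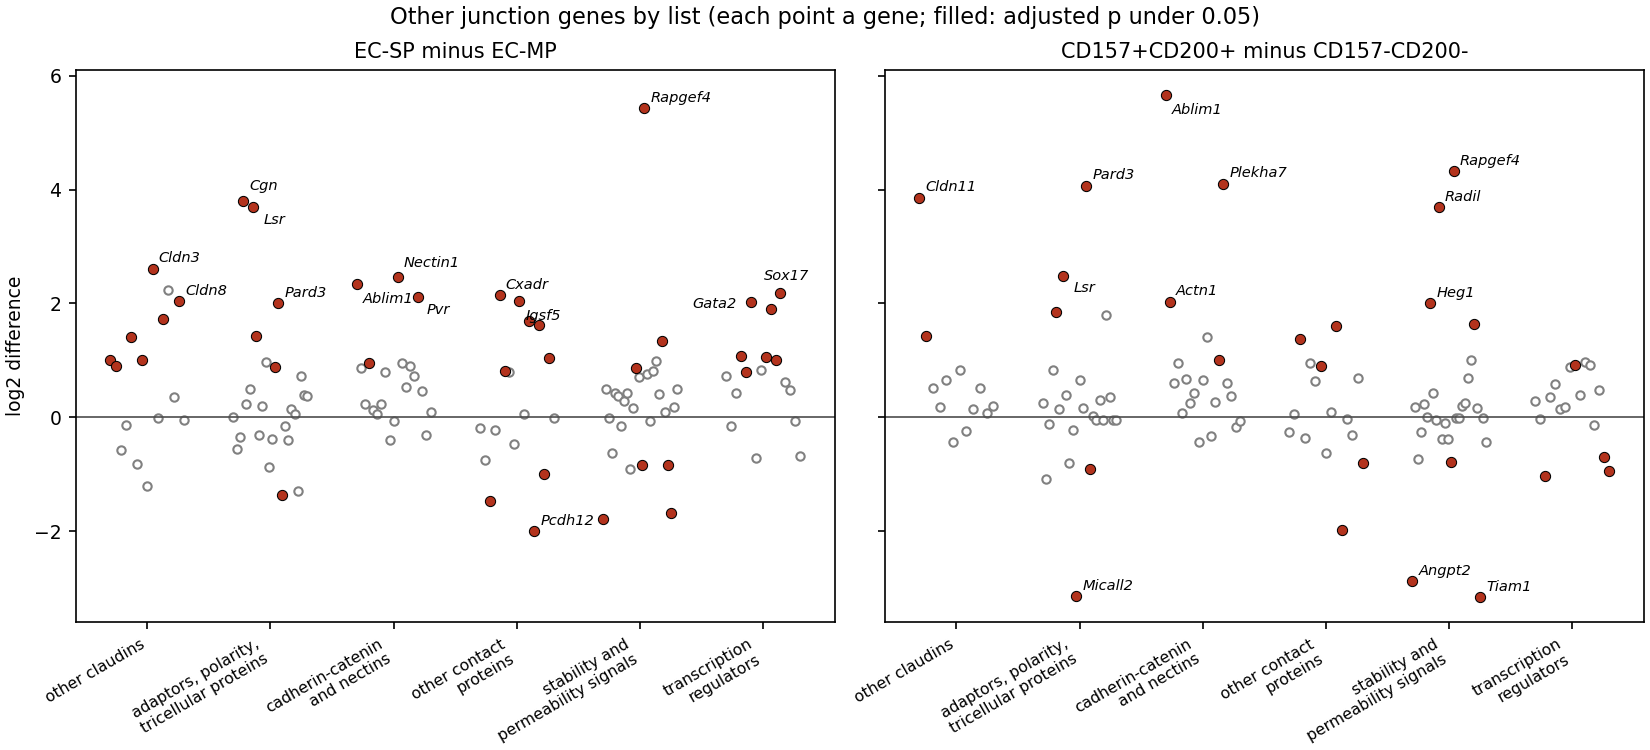
Log2 difference of the tested genes of 6 junction lists between EC-SP and EC-MP (left) and between CD157+CD200+ and CD157-CD200- (right); each point is a gene, filled at an adjusted p under 0.05 and named where the difference exceeds 2 in size. Called claudins numbered 7 of 15 on the left and 2 of 12 on the right, and Rapgef4 was among the highest points in both, although it was well above background on 1 of 3 EC-MP and 0 of 3 CD157-CD200- arrays.

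The patterns of the 9 genes were also compared across the 15 arrays, after the mean of each sort had been removed, as a description over arrays that share slides and scanners. Jam3 and Ocln followed each other most closely, with Pearson r = 0.95, and Pecam1 followed both at r = 0.83, but Ocln was not well above background on 9 of the 15 arrays, so that its correlations and nearest features rest in part on dim signals. Jam2 and F11r correlated at r = 0.81, and Cldn5 and Jam2 at r = -0.81. Cdh5 lay between -0.19 and 0.20 with every other member. Among 13598 named features, the nearest to Ocln were Eif1a, Fosl2 and Lsr (r = 0.98 each), and to Jam3 Galnt15, Dusp2 and Itih5 (r = 0.98 each). Bst2, AW112010 and Apoe were nearest to Cldn5 (r = 0.95), Pacsin3, Cttnbp2 and Cavin1 to Pecam1 (r = 0.97), and AU021092, Lims2 and Tmem176a to Jam2, led by r = 0.98. For F11r they were Hspa12b, Cd9 and Stx3, led by r = 0.96, and for Tjp1 Arpc1b, Aff4 and Gbp3, led by r = 0.97. Esam had Slc39a7, Ctnnbl1 and Ppic, led by r = 0.91, and the first for Cdh5 were Dazap2 and Thrap3, led by r = 0.90.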

How the data were processed

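The assay was 1-colour array hybridisation of RNA from 15 sorted samples. Per the labels' protocols it was column-purified, amplified with Ovation Pico WTA System V2 and labelled with Cy3 as cDNA. Images were read with Agilent Feature Extraction, version 10.10.1.1 for EC-SP and EC-MP and 11.5.1.1 for the subsets, per the file headers. The deposited scanner files hold background-subtracted intensity on a linear scale. In the deposited series table this intensity is scaled by 1 factor per array, 5.46 to 10.1, and not centred, with column medians from 218.3 to 335.4; no source used here gives the basis of that factor. 

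Control spots and outlier spots (110 to 213 per array) were left out, no spot was saturated, and log2 of the processed signal minus log2 of the array's 75th percentile was taken. Symbols came from RefSeq accessions. Of 55681 probes, 28059 had the symbol of 1 gene and 27622 had none. The probe with the highest mean over 15 arrays stood for a gene, if some group had it well above background on each of its 3 arrays. EC-SP and EC-MP (6 arrays) and the subsets (9 arrays) were fitted apart with limma 3.58.1 in R 4.3.3 (lmFit, eBayes, Benjamini-Hochberg over all features, two-sided, threshold 0.05); Python 3.11.15 read the files. The number of arrays limits the precision.

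The members and gene lists were chosen with earlier results of these data known. Named are the 9 members, the sort markers, up to 3 called genes of lowest adjusted p per list, direction and comparison, the 3 features most like each member, and up to 2 called or undetected markers of other cells. A gene on more than 1 list is counted in each. Same-numbered arrays shared a slide and scan, and after group means were removed they correlated at r from 0.27 to 0.33 in the 3 pairs of EC-SP and EC-MP and from 0.27 to 0.63 in the 9 subset pairs, so the numbers pair the samples and slide, scan and replicate block are 1 term. Alternatives were normexp with an offset of 50 on median signals (mean signals were planned, but the files used here give medians), quantile normalization, the series table, other filters and probe rules, 1 fit of 15 arrays, the block, and leaving out each array. One gene among those whose pattern was nearest to a member is not reported here.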

Additional observations from a re-analysis of the deposited data

How the results depend on the processing

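Of 391 differences of single members under other settings, 365 kept their direction and side of the threshold, 6 lost a call, 13 gained one and 7 changed sign. Of 432 that left out 1 array, 394 kept both, 16 lost a call, 2 gained one and 20 changed sign. No value that changed sign was called either time. Between EC-SP and EC-MP, quantile normalization gave -0.14 for Cdh5 and -0.25 for F11r, and the series table -0.061 and -0.11. With normexp Cdh5 was 0.012 between the CD200-positive subsets and Ocln -0.028 between the CD157-negative ones; with the series table the difference of differences of Jam3 was -0.058. The series table rescales each array by 1 factor, so it shifts the difference of every feature in a comparison by about the same amount. With it the median of all features was -0.17 for EC-SP minus EC-MP and -0.15 for the difference of differences. As reported, these medians were -0.005 and 0.003. The cause of the changes under quantile normalization and normexp was not tested.

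The count of members called between CD157+CD200+ and CD157-CD200+ was 1 under normexp, quantile normalization, no filter and the strict filter. The strict filter tested 8 members because Ocln was not well above background on every array. For that reason EC-SP against EC-MP also had 1. The difference of differences had 3 under normexp, 2 under the strict filter and 4 with the replicate block. The block changed 2 other calls, Pecam1 in EC-SP and Ocln between the CD157-negative subsets, and gave 6934, 726 and 5280 features called in the 3 subset comparisons where 3599, 248 and 2806 were called without it, and 6346 against 3304 among the 3 subsets. Without the filter, 2279 features were called between EC-SP and EC-MP in place of 3966, 166 between the CD200-positive subsets, and 847 in the difference of differences in place of 1265. Normexp gave 371 between the CD200-positive subsets, and the strict filter 156, while leaving out 1 array gave 104 to 261. The series table shifted the median of all features to -0.17 between EC-SP and EC-MP. It turned the share of called features higher in EC-SP from 55.0% to 39.8%. In the difference of differences the share was 41.1%, 54.8% under normexp and 29.0% with the series table.

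Leaving out 1 array gave 2 to 3 members called between EC-SP and EC-MP, 5 to 6 between CD157+CD200+ and CD157-CD200-, 1 to 2 between the CD200-positive and 3 to 4 between the CD157-negative subsets, 5 to 6 among the subsets and 1 to 2 in the difference of differences. Signs changed in the ranges -0.28 to 0.38 (Cldn5), -0.046 to 0.22 (Cdh5) and -0.048 to 0.17 (F11r) for EC-SP minus EC-MP. They changed in -0.22 to 0.14 (Esam) for CD157+CD200+ minus CD157-CD200-, and in -0.18 to 0.13 (Cdh5), -0.16 to 0.078 (F11r) and -0.080 to 0.34 (Tjp1) for CD157+CD200+ minus CD157-CD200+. For CD157-CD200+ minus CD157-CD200- the ranges were -0.28 to 0.015 (Cdh5) and -0.10 to 0.36 (Tjp1). Slide and scan were not run as a separate block. Dim signal limits Ocln in EC-MP, CD157-CD200+ and CD157-CD200-.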

Other observations

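Stellate cell and pericyte markers moved among the subsets as well. Of 9 tested, 3 were higher and 2 lower in CD157+CD200+ than in CD157-CD200- cells, where 8.09% of features were higher and 7.1% lower. The same counts held between CD157-CD200+ and CD157-CD200-, beside 6.31% and 5.54% of features. The summed signal of the 12 markers listed was 18.6 to 29.0 in CD157+CD200+, 17.6 to 31.2 in CD157-CD200+ and 5.11 to 6.28 in CD157-CD200-, against 8.16 to 13.1 in EC-SP and 2.74 to 3.33 in EC-MP. Without Rgs5, a pericyte gene left out after its values were seen, it was 6.33 to 10.03, 5.77 to 9.38 and 3.89 to 5.17 in the subsets in that order, and 1.93 to 2.81 in EC-SP overlapped 2.08 to 2.79 in EC-MP. Between EC-SP and EC-MP, Rgs5 was the 1 marker of 9 higher (3.75 ± 0.33, limma adjusted p = 1.8e-04), and 2 were lower, Lrat and Reln, both not well above background in EC-SP. Over all features, 9.11% were called higher and 7.44% lower there. Pdgfra and Hand2 were not well above background in any group. Platelet markers had 3 of 8 lower in EC-SP than in EC-MP, beside 7.44% of features. In each CD200-positive subset 2 of 7 were lower than in CD157-CD200-, beside 7.1% of features for CD157+CD200+ and 5.54% for CD157-CD200+. The platelet marker sum was 6.68 to 7.12 in EC-SP and 16.3 to 32.2 in EC-MP. In the subsets it was 6.18 to 6.76 in CD157+CD200+, 6.50 to 8.13 in CD157-CD200+ and 40.9 to 62.4 in CD157-CD200-. Without Clec1b, left out likewise, it was between 5.05 and 7.43 on every array. Gp5 was below background throughout. No lymphocyte or leukocyte marker passed limma's test in any of the 4 comparisons, and 1 of 5 had an unadjusted p under 0.05 between CD157+CD200+ and CD157-CD200-, 0 in the others. Of all features, 26.6% had such a p in that comparison.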
